A study of Mus musculus with 14 samples.

Results

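Collagens are the chains from which most of the fibres, sheets and anchoring threads outside cells are built. A collagen chain gene is taken here as any gene whose symbol is Col, a number, a and a number, and 42 such genes had a probe set with a single gene symbol, out of 18193 gene symbols on the array. Each gene was represented by its probe set with the highest mean over the 14 arrays, whatever its values in any group. Of the 42 genes, 34 passed the filter on low values that left 13453 genes for testing. The 8 that did not pass were Col4a3, Col4a4, Col6a4, Col6a5, Col10a1, Col17a1, Col19a1 and Col26a1.

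Collagen chains wind around each other into a helix inside the endoplasmic reticulum, after enzymes have hydroxylated their prolines and lysines, and are trimmed and crosslinked outside the cell. Fibrillar collagens form the fibres of bone, tendon and cartilage. Collagens of the FACIT class (fibril-associated collagens with interrupted helices) sit on the surface of such fibres, type VI forms beaded filaments around cells, type VIII forms open networks, and type IV forms the sheet of basement membranes on which endothelial cells rest. Type I collagen is the main protein of bone matrix and is laid down by osteoblasts.

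The RNA came from stromal cells of mouse bone marrow, released by serial collagenase digestion and sorted by flow cytometry into Trizol. The GFP+ sort held cells with GFP and without CD45, ter119 and CD31, labelled osteoblasts, and the CD31+ sort held cells with CD31 and without CD45, ter119 and GFP, labelled endothelial cells. The mice were pOBcol2.3-GFP mice on a C57BL/6J background, given as wild type and 6 to 8 weeks old, and GFP in this line is switched on by part of the Col1a1 promoter, so the GFP+ gate itself selects cells in which a collagen promoter fragment is active. The G-CSF groups received G-CSF, a cytokine that raises neutrophil production, under the skin for 5 days at 250 ug per kg. The untreated groups are so named in the labels, while their protocol text speaks of vehicle alone and of 7 days. There were 3 arrays of the GFP+ sort after G-CSF, 3 of the untreated GFP+ sort, 4 of the CD31+ sort after G-CSF and 4 of the untreated CD31+ sort. Whether replicates are separate animals is not stated, and p-values therefore measure only the spread between these arrays, which may be technical. The number of mice behind an array is not given in the sources used here.

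Each array held 45101 probe sets, with a trimmed mean intensity of 500.0 on all 14 arrays and a median of 6.57 to 7.13 on the log2 scale. Of the 10 endothelial markers, 10 were lower in the GFP+ sort both after G-CSF and in untreated mice, against 14.4% and 12.8% of all genes. Pecam1, among them, encodes CD31, on which both gates were set. Osteoblast markers were not absent from the CD31+ sort: the summed intensity of the 6 measured ones (Ibsp, Sp7, Alpl, Dmp1, Phex and Pth1r) was 77973 to 106613 in the GFP+ sort and 1933 to 22911 in the CD31+ sort after G-CSF, and 35544 to 121184 in the GFP+ sort and 8549 to 39694 in the CD31+ sort of untreated mice. None of the 6 averaged under the filter threshold in a CD31+ group. All 6 were called higher in the GFP+ sort after G-CSF and 2 of the 6 in untreated mice. Of 10 fibroblast and tendon markers, 8 were called higher after G-CSF and 5 in untreated mice. None of either list was lower, and 17.5% and 13.6% of all genes were higher. On marker sums, several arrays stood apart. Replicate 2 of the untreated GFP+ sort had a neutrophil marker sum of 267855, against 44254 and 59054 on the other 2 arrays of its group. Its osteoblast sum was 35544, against 105338 and 121184, and its erythroid sum was 12972, against 1516 and 1979. It was the lowest of its group for 20 of the 34 tested chains. Replicate 2 of the untreated CD31+ sort had an osteoblast sum of 8549, against 28666 to 39694 on the other arrays of its group. Replicate 1 of the untreated CD31+ sort had a skeletal muscle marker sum of 146644, against 3264 to 8408 on the other 3, and replicate 2 of the CD31+ sort after G-CSF had the lowest osteoblast sum of all arrays.

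The promoter windows of the chains on which the results below turn are shown first, as the 150 bases before the start that RefSeq gives on build GRCm38.p6, 5′ to 3′ on the plus strand, which is the strand of all 3 genes. Col8a2 is the chain with the largest difference between the sorts, and in its window at chr4:126286644-126286793 the capitals mark GC boxes (GGGCGG or CCGCCC). Col3a1 is the chain called after G-CSF in the CD31+ sort, and in its window at chr1:45311388-45311537 the capitals mark a TATA box (TATAA or TTATA, overlapping here). Col1a2, a chain of bone matrix whose brightest probe set did not pass the test between the untreated sorts, has a CCAAT box (CCAAT or ATTGG) in capitals at chr6:4505468-4505617.
Col8a2: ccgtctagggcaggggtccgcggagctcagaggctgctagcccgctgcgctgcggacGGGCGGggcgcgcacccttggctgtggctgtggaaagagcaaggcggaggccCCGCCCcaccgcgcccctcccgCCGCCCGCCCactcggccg
Col3a1: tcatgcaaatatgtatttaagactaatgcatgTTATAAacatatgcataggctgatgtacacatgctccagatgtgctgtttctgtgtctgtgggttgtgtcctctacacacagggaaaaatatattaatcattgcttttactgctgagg
Col1a2: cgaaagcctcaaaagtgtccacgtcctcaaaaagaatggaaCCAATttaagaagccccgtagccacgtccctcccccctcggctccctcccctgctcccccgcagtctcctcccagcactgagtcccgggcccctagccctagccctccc
Wider windows, of 250 bases before to 50 after the start, were at hand for 33 of the 42 chains. A GC box stood on either strand in 21 of these 33, against 38.2% of 27025 genes. A CCAAT box stood in 13 of the 33, against 41.1% of all genes, and a TATA box in 7 of the 33, against 28% of all genes. These are matches of letters and describe the windows alone.

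Every chain is shown as its deviation from its own mean in the plot of all 42 genes across the 14 arrays. The chains fell into blocks by sort, many of them higher on the GFP+ arrays, with Col4a1, Col4a2, Col9a3 and Col15a1 in the other direction. Several chains also varied together among the CD31+ arrays.

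**Figure D1:**
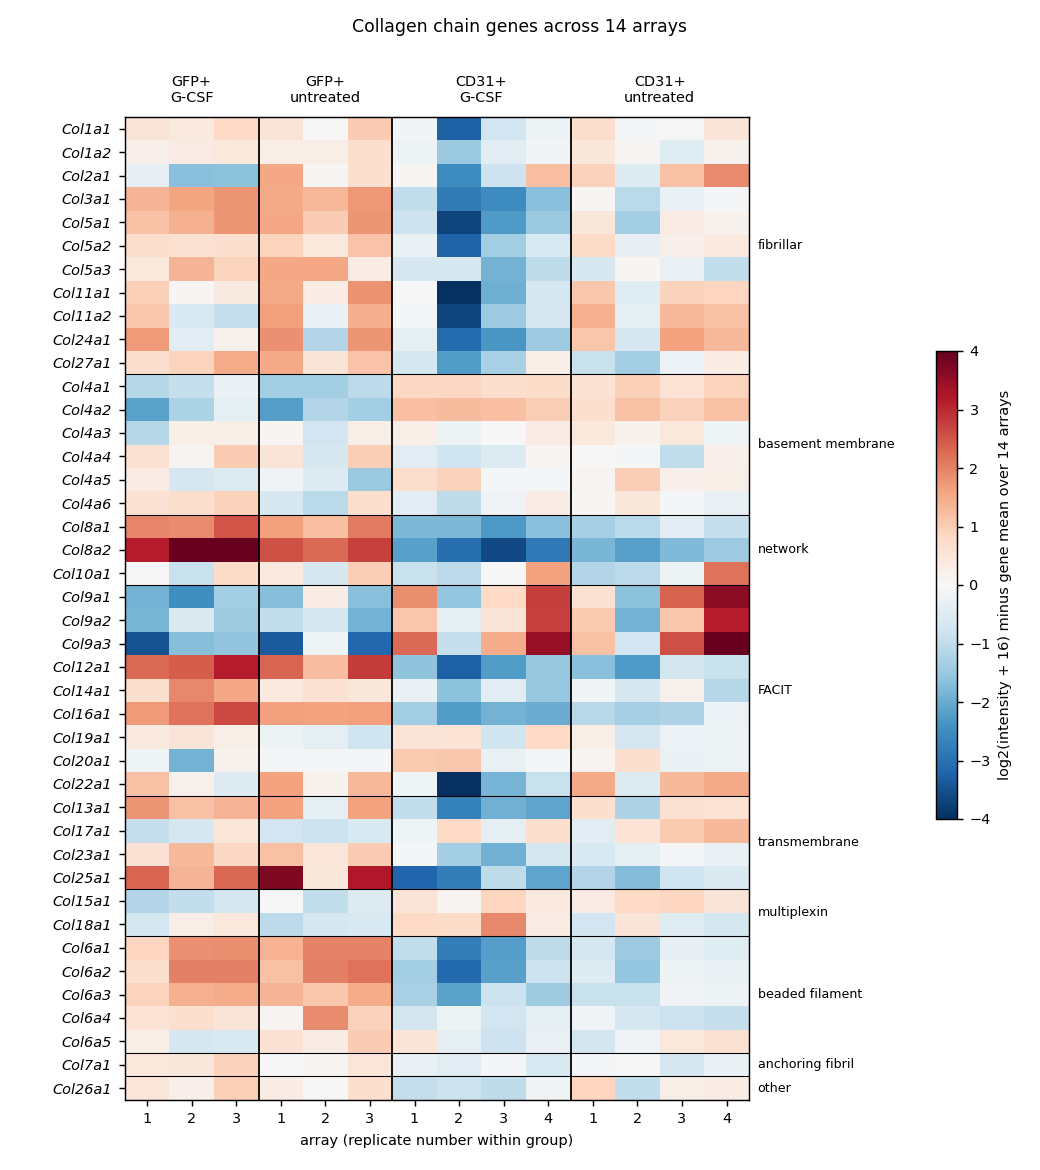
Values of 42 collagen chain genes (rows, grouped by class) on 14 arrays (columns), as log2(intensity + 16) minus the gene's own mean over all arrays, red above and blue below it, with the colours ending at 4 on either side. Col8a2, Col8a1, Col12a1 and Col16a1 were above their means on every GFP+ array and below them on every CD31+ array, and replicate 2 of the CD31+ sort after G-CSF was the lowest of its group for 23 of the 34 tested chains.

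The first question is which chains distinguish the 2 sorts, asked separately after G-CSF and in untreated mice. All values are log2(intensity + 16), all differences between the sorts are GFP+ minus CD31+ on that scale with their standard error (SE), and a gene was called when its limma p, adjusted over all 13453 genes, was under 0.05. After G-CSF, 25 of the 34 tested chains were called, 21 higher and 4 lower in the GFP+ sort, against 31.9% of all genes called, 17.5% higher and 14.4% lower. In untreated mice, 18 of the 34 were called, 13 higher and 5 lower, against 26.4% of all genes called, 13.6% higher and 12.8% lower. The median difference of the chains was 1.97 after G-CSF and 0.52 in untreated mice, where the medians of all genes were 0.02 and 0. Groups that did not overlap, with all GFP+ arrays above all CD31+ arrays, were found for 21 of the 34 after G-CSF, against 21.4% of all genes, and for 14 of the 34 in untreated mice, against 16.7%. The GFP+ arrays were all below the CD31+ arrays for 5 of the 34 after G-CSF, against 18% of all genes, and for 4 in untreated mice, against 15.9%. Of the 34 chains, 13 were called higher in both and 4 lower in both, and none was called in opposite directions. Among all 13453 genes, 1518 were higher in both, 1348 lower in both and 1 opposite. With no filter on low values, 22 of the 42 chains were higher and 4 lower after G-CSF, against 13.3% and 10.2% of 18193 genes, and 13 were higher and 5 lower in untreated mice, against 10.1% and 9.04%.

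In bulk RNA of a sort, fewer cells of a type and less RNA per cell cannot be told apart, and this holds for every difference below. With each array centred on its median, which put the median of all genes at -0.37 after G-CSF, 16 chains were higher and 9 lower. Of all genes, 1452 were then higher and 3974 lower. With quantile normalisation, which put that median at -0.13, 17 chains were higher and 7 lower, against 1945 and 2293 of all genes. In untreated mice 11 chains were higher and 5 lower with centring, against 1239 and 2575 of all genes. With quantile normalisation they were 12 and 5 there, against 1601 and 1941. In the arrays deposited with 1 decimal, which hold replicate 1 of each GFP+ group and all CD31+ arrays, the called chains kept their direction, 25 of 25 after G-CSF and 18 of 18 in untreated mice, and 17 and 12 of them were called. Without replicate 2 of the untreated GFP+ sort and replicate 1 of the untreated CD31+ sort, 17 of the 18 chains called in untreated mice were called. Without replicate 2 of the CD31+ sort after G-CSF and replicate 2 of the untreated GFP+ sort, 24 of the 25 called after G-CSF were called.

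Among the fibrillar chains, 9 of 11 were higher in the GFP+ sort after G-CSF and 4 of 11 in untreated mice, and none was lower. Col3a1 (Entrez 12825), the chain of type III collagen found in reticular fibres and vessel walls, had 15.55, 15.77 and 15.96 in the GFP+ sort after G-CSF, against 13.22, 11.39, 11.69 and 12.53 in the CD31+ sort. In untreated mice it had 15.70, 15.54 and 15.94 in the GFP+ sort, against 14.26, 13.13, 13.94 and 14.16 in the CD31+ sort. All GFP+ arrays lay above all CD31+ arrays, and the differences were 3.55 ± 0.37 after G-CSF (adjusted p = 3.81e-06), which is 11.7-fold, and 1.85 ± 0.37 in untreated mice (adjusted p = 0.00163), which is 3.61-fold. RefSeq places Col5a2 as the next collagen gene after Col3a1 on chromosome 1.

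Type V collagen joins type I in fibrils and helps to start them. Col5a1 had 14, 14.27 and 14.61 in the GFP+ sort and 12.01, 9.12, 10.58 and 11.34 in the CD31+ sort after G-CSF. Col5a1 in untreated mice had 14.38, 13.85 and 14.61 in the GFP+ sort and 13.30, 11.49, 13.15 and 12.99 in the CD31+ sort. Its differences were 3.53 ± 0.55 after G-CSF (adjusted p = 0.00017) and 1.55 ± 0.55 in untreated mice, where the adjusted p of 0.0497 was just under the threshold. Neither pair of groups overlapped for Col5a1. Col5a2 had 15.29, 15.21 and 15.27 in the GFP+ sort and 14.33, 11.35, 13.21 and 13.97 in the CD31+ sort after G-CSF, a difference of 2.04 ± 0.51 (adjusted p = 0.00655) with no overlap. In untreated mice Col5a2 had 15.49, 15.02 and 15.73 in the GFP+ sort and 15.35, 14.25, 14.78 and 14.98 in the CD31+ sort, which overlapped, with a difference of 0.58 ± 0.51 (adjusted p = 0.454). Col5a3, the remaining chain of the type, had 9.44, 10.40 and 9.93 in the GFP+ sort and 8.34, 8.40, 7.15 and 8.02 in the CD31+ sort after G-CSF. Col5a3 in untreated mice had 10.56, 10.57 and 9.32 in the GFP+ sort and 8.38, 9.09, 8.73 and 8.03 in the CD31+ sort. Its GFP+ arrays were above its CD31+ arrays under both conditions, by 1.94 ± 0.38 after G-CSF (adjusted p = 0.00113) and 1.60 ± 0.38 in untreated mice (adjusted p = 0.00594).

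On the probe sets used, the chains of type I collagen itself were called between the sorts after G-CSF and not in untreated mice. Col1a1 (Entrez 12842) had 15.57, 15.45 and 15.85 in the GFP+ sort after G-CSF and 15.58, 15.03 and 16.06 in untreated mice. In the CD31+ sort it had 14.93, 11.77, 14.29 and 14.86 after G-CSF and 15.74, 14.97, 15.04 and 15.56 in untreated mice. The untreated sorts overlapped, with a difference of 0.23 ± 0.57 (adjusted p = 0.814). After G-CSF all GFP+ arrays were above all CD31+ arrays, by 1.66 ± 0.57 (adjusted p = 0.0354). Col1a2 had 15.52, 15.65 and 15.74 in the GFP+ sort and 15.13, 13.82, 14.85 and 15.22 in the CD31+ sort after G-CSF, which did not overlap, with a difference of 0.88 ± 0.30 (adjusted p = 0.0342). In untreated mice Col1a2 had 15.57, 15.57 and 15.95 in the GFP+ sort and 15.78, 15.37, 14.84 and 15.45 in the CD31+ sort, which overlapped, with a difference of 0.34 ± 0.30 (adjusted p = 0.45). The calls of both type I chains after G-CSF were lost with quantile normalisation, with centring, with array weights, in a fit of only the arrays compared, over the arrays deposited with 1 decimal, with the decimals as a batch term and with the actin 3′ to 5′ ratio as a covariate. Other probe sets gave other sizes: a dimmer Col1a2 probe set differed by 2.99 between the untreated sorts (adjusted p = 0.00116 over all probe sets) where the one used differed by 0.34. The probe sets used for Col1a1 and Col1a2 had the highest means of all chains, 15.05 and 15.32. Whether the top of the intensity scale limits their differences was not tested.

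Type XI chains, which thread the core of cartilage fibrils and are also made in bone, and Col24a1, a fibrillar chain of developing bone, varied widely between arrays. Col11a1 had 14.54, 13.63 and 13.96 in the GFP+ sort and 13.58, 8.90, 11.65 and 12.89 in the CD31+ sort after G-CSF. Col11a1 in untreated mice had 15.10, 13.89 and 15.38 in the GFP+ sort and 14.68, 13.12, 14.51 and 14.45 in the CD31+ sort. It was higher in the GFP+ sort after G-CSF by 2.29 ± 0.80 (adjusted p = 0.0413) without overlap, and differed by 0.60 ± 0.80 in untreated mice (adjusted p = 0.641) with overlap. Replicate 2 of the CD31+ sort after G-CSF was far below the other arrays. Col24a1 had 10.86, 8.75 and 9.34 in the GFP+ sort and 8.77, 6.09, 6.85 and 7.72 in the CD31+ sort after G-CSF, a difference of 2.29 ± 0.79 (adjusted p = 0.0382) although 1 CD31+ array lay within the GFP+ range. In untreated mice Col24a1 had 11, 8.00 and 10.94 in the GFP+ sort and 10.29, 8.49, 10.77 and 10.46 in the CD31+ sort, with a difference of -0.03 ± 0.79. Col11a2, the partner of Col11a1, did not pass the test, with 1.31 after G-CSF (adjusted p = 0.213) and 0.05 in untreated mice (adjusted p = 0.969). Col27a1, a fibrillar chain known from cartilage, had 10.72, 10.98 and 11.58 in the GFP+ sort and 9.38, 7.85, 8.78 and 10.37 in the CD31+ sort after G-CSF. Col27a1 in untreated mice had 11.60, 10.61 and 11.22 in the GFP+ sort and 9.21, 8.72, 9.84 and 10.39 in the CD31+ sort. It was higher by 2.00 ± 0.50 after G-CSF (adjusted p = 0.0065) and by 1.60 ± 0.50 in untreated mice (adjusted p = 0.0273), with no overlap in either. The cartilage chain Col2a1 was not called, with differences of -0.68 after G-CSF and -0.10 in untreated mice.

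The network chains of type VIII, known from Descemet's membrane of the eye and from vessel walls, had the largest median difference between the sorts of any class. Col8a2 (Entrez 329941) had 11.47, 12.35 and 12.51 in the GFP+ sort after G-CSF, against 6.16, 5.31, 4.71 and 5.46 in the CD31+ sort. In untreated mice it had 10.89, 10.59 and 11.07 in the GFP+ sort, against 6.52, 6.17, 6.58 and 6.87 in the CD31+ sort. The sorts were far apart on every array, by 6.70 ± 0.33 after G-CSF (adjusted p = 7.48e-09), which is 104-fold on this scale, and by 4.32 ± 0.33 in untreated mice (adjusted p = 3.03e-07), which is 19.9-fold. The CD31+ arrays after G-CSF averaged under the filter threshold of 5.78 for Col8a2, so the size of that difference is limited by background. Col8a1 had 13.87, 13.80 and 14.44 in the GFP+ sort and 10.11, 10.13, 9.62 and 10.23 in the CD31+ sort after G-CSF. Col8a1 in untreated mice had 13.56, 13.12 and 14 in the GFP+ sort and 10.59, 10.82, 11.48 and 10.99 in the CD31+ sort. It was higher in the GFP+ sort by 4.01 ± 0.26 after G-CSF (adjusted p = 5.79e-08) and 2.59 ± 0.26 in untreated mice (adjusted p = 4.12e-06), again without overlap. The other network chain, Col10a1 of hypertrophic cartilage, did not pass the filter, and its highest values were 6.96 and 7.54 on replicate 4 of the CD31+ sort after G-CSF and of the untreated CD31+ sort.

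The beaded-filament chains of type VI were all higher in the GFP+ sort. Col6a1 had 13.30, 14.28 and 14.30 in the GFP+ sort and 11.45, 9.68, 10.24 and 11.42 in the CD31+ sort after G-CSF, and 13.84, 14.44 and 14.44 in the GFP+ sort and 11.75, 10.98, 12.13 and 11.97 in the CD31+ sort of untreated mice. Col6a2, its neighbour on chromosome 10, had 13.27, 14.65 and 14.66 in the GFP+ sort and 11.28, 9.52, 10.45 and 11.76 in the CD31+ sort after G-CSF, and 13.79, 14.65 and 14.80 in the GFP+ sort and 12.13, 11.07, 12.44 and 12.36 in the CD31+ sort of untreated mice. Col6a3 had 13.98, 14.50 and 14.57 in the GFP+ sort and 11.78, 10.95, 12.21 and 11.67 in the CD31+ sort after G-CSF, and 14.45, 14.17 and 14.56 in the GFP+ sort and 12.20, 12.20, 12.95 and 12.88 in the CD31+ sort of untreated mice. For all 3 chains every GFP+ array was above every CD31+ array of the same treatment. The differences after G-CSF were 3.27 ± 0.42 for Col6a1, 3.44 ± 0.50 for Col6a2 and 2.69 ± 0.28 for Col6a3, with adjusted p of 2.83e-05, 9.8e-05 and 4.5e-06. In untreated mice they were 2.54 ± 0.42 for Col6a1, 2.41 ± 0.50 for Col6a2 and 1.84 ± 0.28 for Col6a3, with adjusted p of 0.000366, 0.00234 and 0.000219. The remaining type VI genes, Col6a4 and Col6a5, did not pass the filter.

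**Figure D2:**
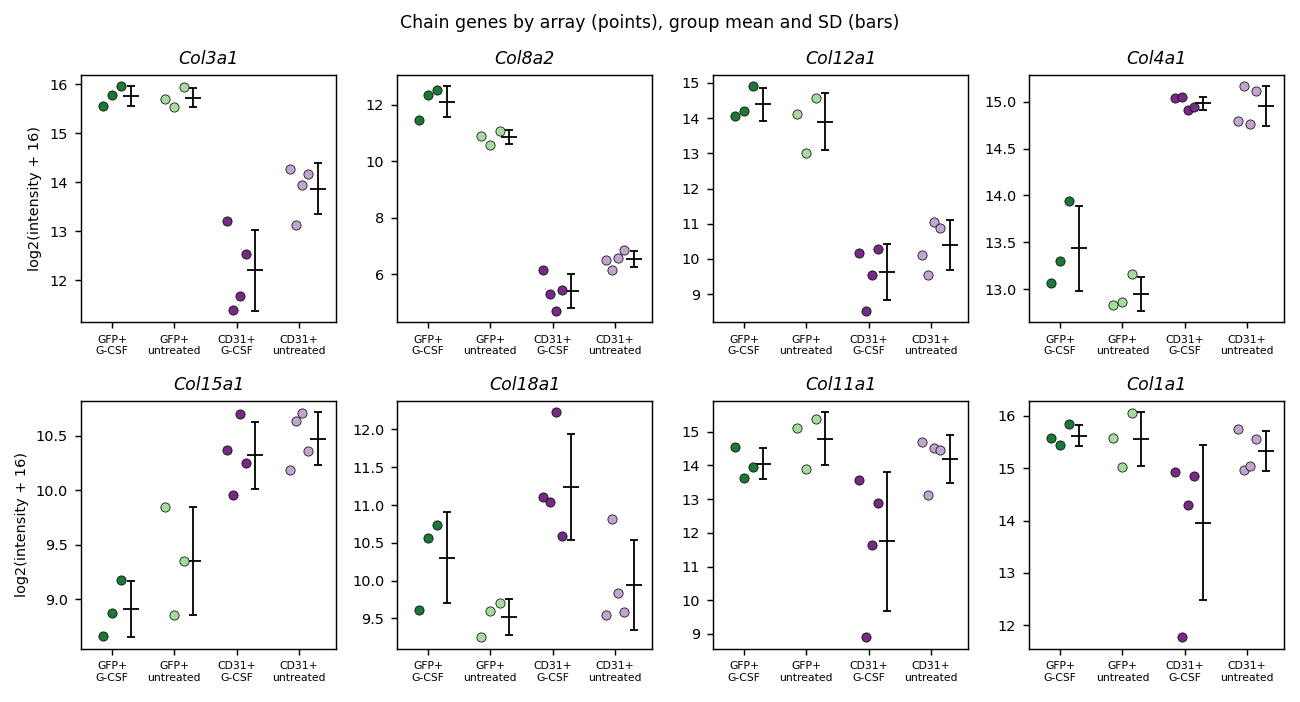
Values of 8 chains as log2(intensity + 16), 1 point per array, with the group mean and SD beside the points; groups from left to right are GFP+ after G-CSF, GFP+ untreated, CD31+ after G-CSF and CD31+ untreated. Col3a1, Col8a2 and Col12a1 were higher on every GFP+ array, Col4a1 and Col15a1 were lower on every GFP+ array than on the CD31+ arrays of the same treatment, and Col11a1 and Col1a1 had 1 low array in the CD31+ sort after G-CSF.

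FACIT chains went in both directions: of 8 tested, 3 were higher and 1 lower in the GFP+ sort after G-CSF, and 2 were higher and 1 lower in untreated mice. Col12a1, which decorates type I fibrils in tendon and other dense tissue, had 14.06, 14.20 and 14.92 in the GFP+ sort and 10.16, 8.52, 9.54 and 10.28 in the CD31+ sort after G-CSF. Col12a1 in untreated mice had 14.12, 13.01 and 14.58 in the GFP+ sort and 10.11, 9.53, 11.04 and 10.88 in the CD31+ sort. The gap was 4.77 ± 0.47 after G-CSF (adjusted p = 2.38e-06), or 27.3-fold, and 3.52 ± 0.47 in untreated mice (adjusted p = 5.9e-05), or 11.4-fold, with no overlap. Col16a1 had 12.16, 12.62 and 13.10 in the GFP+ sort and 9.06, 8.22, 8.57 and 8.48 in the CD31+ sort after G-CSF. Col16a1 in untreated mice had 12.08, 12.06 and 12.11 in the GFP+ sort and 9.36, 9.12, 9.21 and 10.21 in the CD31+ sort. It was higher by 4.04 ± 0.28 after G-CSF (adjusted p = 1.16e-07) and by 2.61 ± 0.28 in untreated mice (adjusted p = 8.54e-06), and its untreated GFP+ arrays lay within an SD of 0.03. Col14a1, like Col12a1 a partner of type I fibrils, had 8.51, 9.81 and 9.43 in the GFP+ sort and 7.61, 6.23, 7.41 and 6.35 in the CD31+ sort after G-CSF. Col14a1 in untreated mice had 8.28, 8.47 and 8.33 in the GFP+ sort and 7.78, 7.24, 8.06 and 6.73 in the CD31+ sort. Its GFP+ arrays were above its CD31+ arrays in both, but only the difference of 2.35 ± 0.41 after G-CSF was called (adjusted p = 0.000438), against 0.91 ± 0.41 in untreated mice (adjusted p = 0.121). A dimmer Col14a1 probe set differed by 1.90 in untreated mice and was called in a fit of all probe sets (adjusted p = 0.00551), so the missing call depends on the probe set.

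The type IX chains, which coat type II fibrils of cartilage, had lower mean values in the GFP+ sort, with Col9a3 called. Col9a3 had 4.69, 6.46 and 6.59 in the GFP+ sort and 10.44, 7.25, 9.64 and 11.65 in the CD31+ sort after G-CSF. Col9a3 in untreated mice had 4.83, 8.01 and 5.02 in the GFP+ sort and 9.34, 7.39, 10.75 and 12.29 in the CD31+ sort. It was lower in the GFP+ sort, with differences of -3.83 ± 1.14 after G-CSF (adjusted p = 0.0177) and -3.99 ± 1.14 in untreated mice (adjusted p = 0.017), where 1 GFP+ array, the one with the high neutrophil sum, lay among the CD31+ arrays. Replicate 4 of the CD31+ sort was the highest Col9a3 array in either treatment. Col9a1 and Col9a2 did not pass the test, with differences of -2.86 and -2.29 after G-CSF and -2.25 and -2.06 in untreated mice, with adjusted p of 0.0551, 0.068, 0.145 and 0.112. Within the CD31+ sort Col9a1 ran from 8.20 to 12.50 after G-CSF and from 8.10 to 13.32 in untreated mice, lowest on replicate 2 and highest on replicate 4 in both. The summed chondrocyte markers of these arrays were 6267, 1097, 2730 and 13958 after G-CSF and 4418, 1062, 7572 and 19133 in untreated mice, for replicates 1 to 4, so they too were lowest on replicate 2 and highest on replicate 4. Of the 10 chondrocyte markers, 3 were higher and none lower in the GFP+ sort after G-CSF, and 1 was higher and none lower in untreated mice. Of all genes, 17.5% were higher and 14.4% lower after G-CSF, and 13.6% and 12.8% in untreated mice. The chondrocyte markers called were Sox9, Comp and Chad after G-CSF, at 1.42, 2.88 and 3.46, and Sox9 in untreated mice, at 1.38. The others differed in both directions. After G-CSF, Matn3, Cnmd, Epyc, Matn1 and Cytl1 had -2.33, -2.87, -1.63, -0.85 and -0.44, while Acan and Hapln1 had 1.51 and 1.3. In untreated mice the former had -1.48, -2.05, -1.01, -1.34 and -0.75. Acan, Hapln1, Comp and Chad had 0.39, 0.47, 2.32 and 2.99 there without a call. Chondrocyte sums in the GFP+ sort were 10038 to 29751 after G-CSF and 12604 to 19047 in untreated mice. None of the 10 averaged under the filter threshold in a CD31+ group, while Matn1, Cnmd and Epyc did in the GFP+ sort after G-CSF and Matn1 in the untreated GFP+ sort, as did Col9a2 in both GFP+ groups. The part of these markers in the type IX values was not tested. Col20a1 was not called, with -1.06 after G-CSF and -0.13 in untreated mice, and Col19a1 did not pass the filter. Col22a1 differed by 2.19 after G-CSF (adjusted p = 0.0626) and 0.07 in untreated mice without a call, while 1 of its dimmer probe sets, at 2.22 after G-CSF, was called in a fit of all probe sets (adjusted p = 0.0227).

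Transmembrane collagens, which stay anchored in the cell membrane, were higher in the GFP+ sort for 3 of 3 tested chains after G-CSF and 2 of 3 in untreated mice. Col25a1 had 10.14, 9.17 and 10.12 in the GFP+ sort and 4.66, 5.06, 6.80 and 5.70 in the CD31+ sort after G-CSF. Col25a1 in untreated mice had 11.55, 8.26 and 11.02 in the GFP+ sort and 6.65, 6.08, 7.02 and 7.23 in the CD31+ sort. Its groups did not overlap, and it differed by 4.26 ± 0.66 after G-CSF (adjusted p = 0.000163) and 3.53 ± 0.66 in untreated mice (adjusted p = 0.00101), although a dimmer probe set of Col25a1 differed by 1.55 and 1.06 and was not called. Col13a1, a chain of cell-matrix contacts and of the neuromuscular junction, had 12.87, 12.27 and 12.46 in the GFP+ sort and 10.11, 8.39, 9.18 and 8.99 in the CD31+ sort after G-CSF, a difference of 3.37 ± 0.54 (adjusted p = 0.000213) without overlap. In untreated mice Col13a1 had 12.69, 10.73 and 12.71 in the GFP+ sort and 11.73, 9.85, 11.72 and 11.64 in the CD31+ sort, which overlapped, with a difference of 0.81 ± 0.54 (adjusted p = 0.302). Col23a1 had 7.05, 7.78 and 7.29 in the GFP+ sort and 6.40, 5.12, 4.54 and 5.76 in the CD31+ sort after G-CSF. Col23a1 in untreated mice had 7.63, 6.96 and 7.49 in the GFP+ sort and 5.87, 6.09, 6.42 and 6.22 in the CD31+ sort. It was higher by 1.92 ± 0.38 after G-CSF (adjusted p = 0.00134) and by 1.21 ± 0.38 in untreated mice (adjusted p = 0.0299). Col25a1 and Col23a1 averaged under the filter threshold in the CD31+ sort after G-CSF, so the sizes of their differences there are limited by background. Col17a1, of the hemidesmosomes of epithelia, did not pass the filter.

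Basement membrane chains formed the main block in the other direction. Of the 4 tested type IV chains, 2 were lower in the GFP+ sort after G-CSF and 3 in untreated mice, and none was higher. Col4a1 (Entrez 12826), which with Col4a2 makes the type IV helix found in nearly all basement membranes, had 13.07, 13.30 and 13.94 in the GFP+ sort and 15.04, 15.05, 14.91 and 14.94 in the CD31+ sort after G-CSF. In untreated mice Col4a1 had 12.83, 12.86 and 13.16 in the GFP+ sort and 14.79, 15.17, 14.76 and 15.11 in the CD31+ sort. The differences were -1.55 ± 0.20 after G-CSF (adjusted p = 3.22e-05) and -2.01 ± 0.20 in untreated mice (adjusted p = 4.09e-06), 2.93-fold and 4.02-fold lower in the GFP+ sort. Col4a2 had 11.11, 12 and 12.85 in the GFP+ sort and 14.45, 14.51, 14.44 and 14.24 in the CD31+ sort after G-CSF. Col4a2 in untreated mice had 11.04, 12.08 and 11.89 in the GFP+ sort and 13.91, 14.41, 14.16 and 14.42 in the CD31+ sort. Its differences were -2.42 ± 0.33 after G-CSF (adjusted p = 4.93e-05) and -2.55 ± 0.33 in untreated mice (adjusted p = 4.42e-05), with every GFP+ array below every CD31+ array. Col4a1 and Col4a2 lie head to head on chromosome 8, and their first exons overlap in RefSeq.

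Of the other type IV chains 2 were tested. Col4a5, a chain of the kidney's filtering membrane, had 7.34, 6.32 and 6.45 in the GFP+ sort and 7.69, 7.91, 6.92 and 6.97 in the CD31+ sort after G-CSF, with a difference of -0.67 ± 0.39 (adjusted p = 0.208). In untreated mice Col4a5 had 6.86, 6.49 and 5.52 in the GFP+ sort and 7.10, 7.99, 7.22 and 7.24 in the CD31+ sort, a difference of -1.10 ± 0.39 (adjusted p = 0.047) without overlap. Col4a6, its head-to-head neighbour on the X chromosome, was not called, with 1.06 after G-CSF and -0.39 in untreated mice. At a mean of 5.92 Col4a6 was the chain just above the filter threshold of 5.78, next to Col9a2 at 6.25, and Col4a4 at 5.75, Col26a1 at 5.69 and Col19a1 at 5.60 were just below it.

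Multiplexins are carried in the zone around basement membranes, and the end fragment of Col18a1 is endostatin, an inhibitor of vessel growth. Col15a1 had 8.67, 8.88 and 9.18 in the GFP+ sort and 10.37, 9.96, 10.70 and 10.25 in the CD31+ sort after G-CSF. Col15a1 in untreated mice had 9.85, 8.86 and 9.35 in the GFP+ sort and 10.19, 10.64, 10.71 and 10.36 in the CD31+ sort. It was lower in the GFP+ sort, with differences of -1.41 ± 0.25 after G-CSF (adjusted p = 0.000521) and -1.12 ± 0.25 in untreated mice (adjusted p = 0.00374), without overlap, and kept both calls when any 1 array was left out. Over the arrays deposited with 1 decimal Col15a1 differed by -0.62 in untreated mice and was not called (adjusted p = 0.146). Col18a1 did not pass the test, with -0.94 after G-CSF (adjusted p = 0.0815) and -0.43 in untreated mice (adjusted p = 0.463). Col7a1, the chain of the anchoring fibrils of skin, had 7.49, 7.50 and 7.97 in the GFP+ sort and 6.80, 6.62, 6.98 and 6.45 in the CD31+ sort after G-CSF, a difference of 0.94 ± 0.25 (adjusted p = 0.0097) without overlap. In untreated mice it had 7.06, 7.18 and 7.55 in the GFP+ sort and 6.98, 7.07, 6.39 and 6.80 in the CD31+ sort, with a difference of 0.45 ± 0.25 (adjusted p = 0.208).

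Some of these calls depended on single arrays. In untreated mice, 5 of the 18 were lost in at least 1 fit that left out 1 array. Col5a1 lost its call without replicate 1 or 3 of the GFP+ sort or replicate 2, 3 or 4 of the CD31+ sort (1.13 to 1.76, highest adjusted p 0.152 over all such fits). Col27a1 lost it without replicate 1 or 3 of the GFP+ sort or 1 or 2 of the CD31+ sort (1.33 to 1.88, highest adjusted p 0.113), Col23a1 without replicate 1 or 3 of the GFP+ sort or 1, 2 or 4 of the CD31+ sort (1.07 to 1.41, highest adjusted p 0.112), and Col4a5 without replicate 3 of the GFP+ sort or any 1 CD31+ array (-1.39 to -0.71, highest adjusted p 0.233). The Col4a5 call was lost in 13 of 25 alternative settings in all and that of Col5a1 in 14 of 25, the decimals as a batch term and the actin ratio among them for both. Those 2 settings also took the calls of Col23a1, lost in 12 of 24 settings, and Col27a1, lost in 8 of 25. Col9a3 lost it without replicate 1 or 3 of the GFP+ sort or 4 of the CD31+ sort (-5.02 to -3.21, highest adjusted p 0.0813). After G-CSF, 6 of the 25 were lost in this way. Col1a1 lost its call without any 1 GFP+ array (0.93 to 1.98, highest adjusted p 0.106), Col1a2 without any 1 GFP+ array or replicate 2 or 3 of the CD31+ sort (0.57 to 1.03, highest adjusted p 0.0994), and Col11a1 without any 1 GFP+ array or replicate 2 or 3 of the CD31+ sort (1.33 to 2.89, highest adjusted p 0.124). Col24a1 lost it without replicate 1 or 3 of the GFP+ sort or 2, 3 or 4 of the CD31+ sort (1.69 to 2.76, highest adjusted p 0.169), Col9a3 without replicate 1 of the GFP+ sort or 4 of the CD31+ sort (-4.66 to -3.19, highest adjusted p 0.0796), and Col7a1 without replicate 3 of the GFP+ sort (0.78 to 1.03, highest adjusted p 0.0533). Over all 24 settings after G-CSF, the calls of Col1a2, Col11a1, Col1a1 and Col24a1 were lost in 15, 12, 11 and 10. Those of Col7a1 and Col9a3 were lost in 5 and 3.

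**Figure D3:**
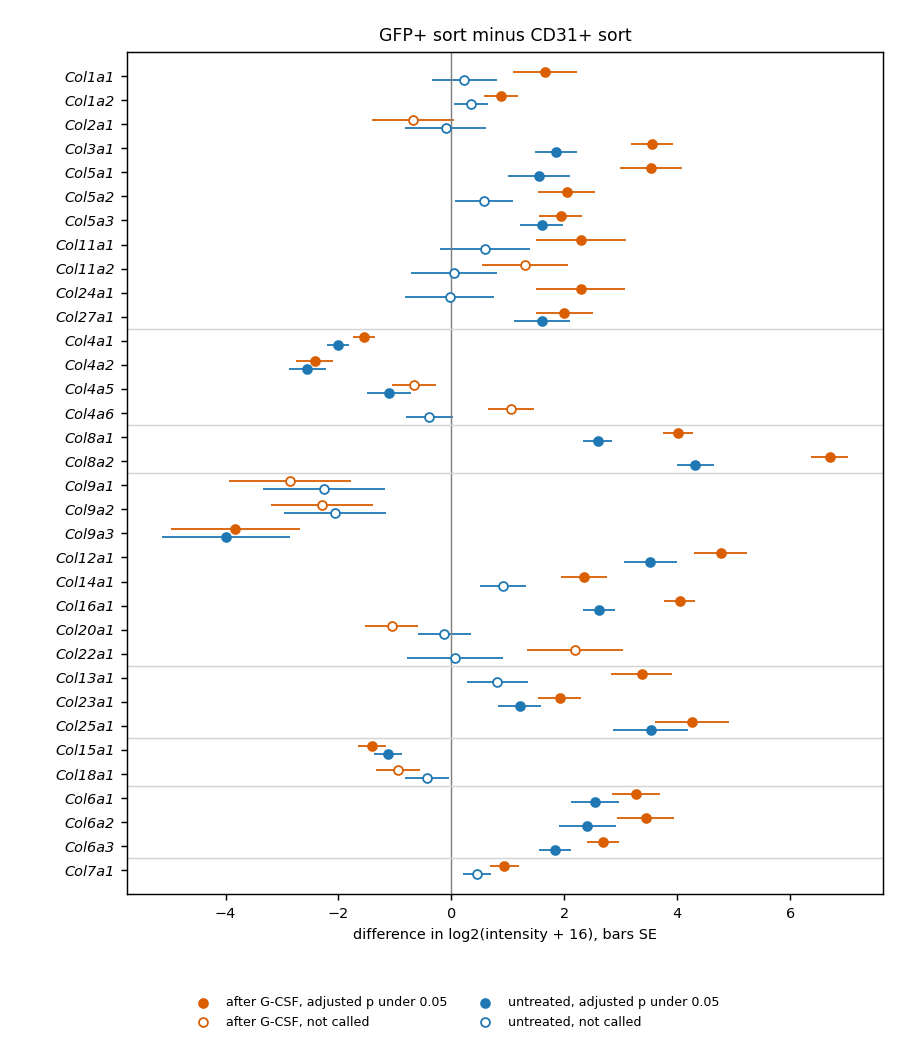
Difference between the sorts, GFP+ minus CD31+, in log2(intensity + 16) with its SE for the 34 tested chains, after G-CSF (orange) and in untreated mice (blue); filled points have an adjusted p under 0.05. Type VIII, VI and III chains and Col12a1, Col16a1 and Col25a1 lie to the right, and Col4a1, Col4a2, Col15a1 and Col9a3 to the left, in both treatments.

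The next question is whether G-CSF changed the chains within the GFP+ sort. None of the 34 chains passed the limma test, against 0.23% of all genes called, 0.186% higher and 0.0446% lower. At an unadjusted p under 0.05 there were 4 of 34, 3 higher and 1 lower, against 8.85% of all genes, 4.8% higher and 4.05% lower, and the median change was -0.04 for the chains and -0.04 for all genes. Col2a1, the chain of cartilage fibrils, had 11.23, 9.87 and 9.91 after G-CSF, against 13.10, 11.59 and 12.21 in untreated mice. All its G-CSF arrays lay below all its untreated arrays, with a change of -1.96 ± 0.77 (adjusted p = 0.435). With the replicate number as a block within the sort the same change was called, with an SE of 0.27 and an adjusted p of 0.0238, and it was the only chain called there, against 0.334% of all genes called higher and 0.141% lower. Col8a2 had 11.47, 12.35 and 12.51 after G-CSF, against 10.89, 10.59 and 11.07 in untreated mice, with all G-CSF arrays above the untreated ones and a change of 1.26 ± 0.35 (adjusted p = 0.227). In the arrays deposited with 1 decimal, replicate 1 of each group, the change was -1.87 for Col2a1 and 0.58 for Col8a2, and over replicates 2 and 3, deposited with more decimals, it was -2.01 and 1.60. Col4a6 and Col4a1 differed by 1.08 and 0.49 and were the other 2 with a low unadjusted p, and Col14a1 and Col16a1, at 0.89 and 0.54, had all G-CSF arrays above all untreated ones without a call. All G-CSF arrays above all untreated ones were thus found for 3 of the 34, against 3.61% of all genes, and all below for 1, against 5.69%. The main fibre chains were close between treatments on the probe sets used: the changes were 0.07 ± 0.60 for Col1a1, -0.06 ± 0.32 for Col1a2, 0.03 ± 0.39 for Col3a1 and 0.01 ± 0.59 for Col5a1. Dimmer probe sets gave -0.6 for Col1a1, -0.19 and -0.51 for Col1a2 and 0.38 for Col3a1, without a call. Neutrophil marker sums in this sort were 182408 to 254503 after G-CSF and 44254 to 267855 in untreated mice, with 0 of 9 tested markers called, and their part in the chains' values was not tested.

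In the CD31+ sort G-CSF went with lower values of most chains of fibres, networks and filaments, with 1 call, and with little difference in Col4a1 and Col4a2. The 1 called chain was Col3a1, with 13.22, 11.39, 11.69 and 12.53 after G-CSF, against 14.26, 13.13, 13.94 and 14.16 in untreated mice. It fell by 1.67 ± 0.34 (adjusted p = 0.0296), 3.17-fold, with 1 G-CSF array inside the untreated range. That is 1 of 34 chains lower, against 1.14% of all genes lower and 0.453% higher. At an unadjusted p under 0.05, 16 of the 34 were lower, against 8.9% of all genes, and 1 was higher, against 4.22%. The median change was -0.83 for the chains and -0.05 for all genes, and by class it was -1.62 for fibrillar, -1.04 for network, -1.01 for beaded-filament, -1.19 for transmembrane, -0.41 for FACIT, 0.01 for basement membrane and -0.10 for anchoring-fibril chains, and 0.57 for the multiplexins. G-CSF arrays lay entirely below untreated arrays for 4 of the 34, Col1a1, Col8a1, Col8a2 and Col16a1, against 5.62% of all genes, and entirely above them for 0, against 4.65%. The Col3a1 call was lost without any 1 of replicates 1, 3 or 4 of the untreated CD31+ sort or 2 or 3 of the CD31+ sort after G-CSF, and its adjusted p was 0.111, with a change of -1.54, without the first of these, the array with the high skeletal muscle sum. Without replicate 2 of the CD31+ sort after G-CSF its change was -1.39.

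Arrays of the CD31+ sort with the same replicate number deviated together, weakly for replicate 4 (r = 0.102, against 0.178 with another number). With the number as a block 15 of the 34 chains were called, 14 lower and 1 higher, against 3.87% of all genes lower and 1.03% higher. Col22a1, a FACIT chain known from tissue junctions, had 11.37, 6.78, 9.70 and 10.67 after G-CSF, against 13.06, 11.01, 12.85 and 13.05 in untreated mice, for replicates 1 to 4. Each replicate was lower after G-CSF, and the change was -2.86 ± 0.79 (adjusted p = 0.0855 without the block and 0.00405 with it). Col5a1 had 12.01, 9.12, 10.58 and 11.34 after G-CSF, against 13.30, 11.49, 13.15 and 12.99 in untreated mice, a change of -1.97 ± 0.51 (adjusted p = 0.0668 without the block and 0.00189 with it). Col13a1 had 10.11, 8.39, 9.18 and 8.99 after G-CSF, against 11.73, 9.85, 11.72 and 11.64 in untreated mice, a change of -2.07 ± 0.50 (adjusted p = 0.0517 without the block and 0.00496 with it). All 4 replicates of Col5a1 and of Col13a1 were lower after G-CSF than the untreated array of the same number. The other lower calls under the block were Col3a1, Col2a1, Col5a2, Col11a1, Col11a2, Col24a1, Col8a1, Col8a2, Col6a1, Col6a2 and Col6a3, with changes between -2.65 for Col24a1 and -0.90 for Col6a3. The higher call was Col18a1, which had 11.10, 11.04, 12.23 and 10.59 after G-CSF, against 9.55, 10.82, 9.83 and 9.59 in untreated mice, a change of 1.29 ± 0.36 (adjusted p = 0.0876 without the block and 0.0345 with it). Col4a1 and Col4a2 changed by 0.03 ± 0.19 and 0.19 ± 0.30 without the block and were not called with or without it, and Col15a1 changed by -0.16 ± 0.23.

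Col1a1 in the CD31+ sort had 14.93, 11.77, 14.29 and 14.86 after G-CSF, against 15.74, 14.97, 15.04 and 15.56 in untreated mice. The G-CSF arrays lay below the untreated ones, replicate 2 by far the most, and the change of -1.37 ± 0.52 was not called (adjusted p = 0.242, and not called with the block). The dimmer Col1a1 probe set changed by -2.86 and a dimmer Col5a2 probe set by -2.80, against -1.62 for the Col5a2 probe set used, in a fit of all probe sets in which the dimmer Col5a2 probe set was called (adjusted p = 0.0413) and the dimmer Col1a1 probe set was not (adjusted p = 0.0789). In that fit the Col1a2 probe set used changed by -0.6 and dimmer ones by -1.64 and -2.34, without a call.

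**Figure D4:**
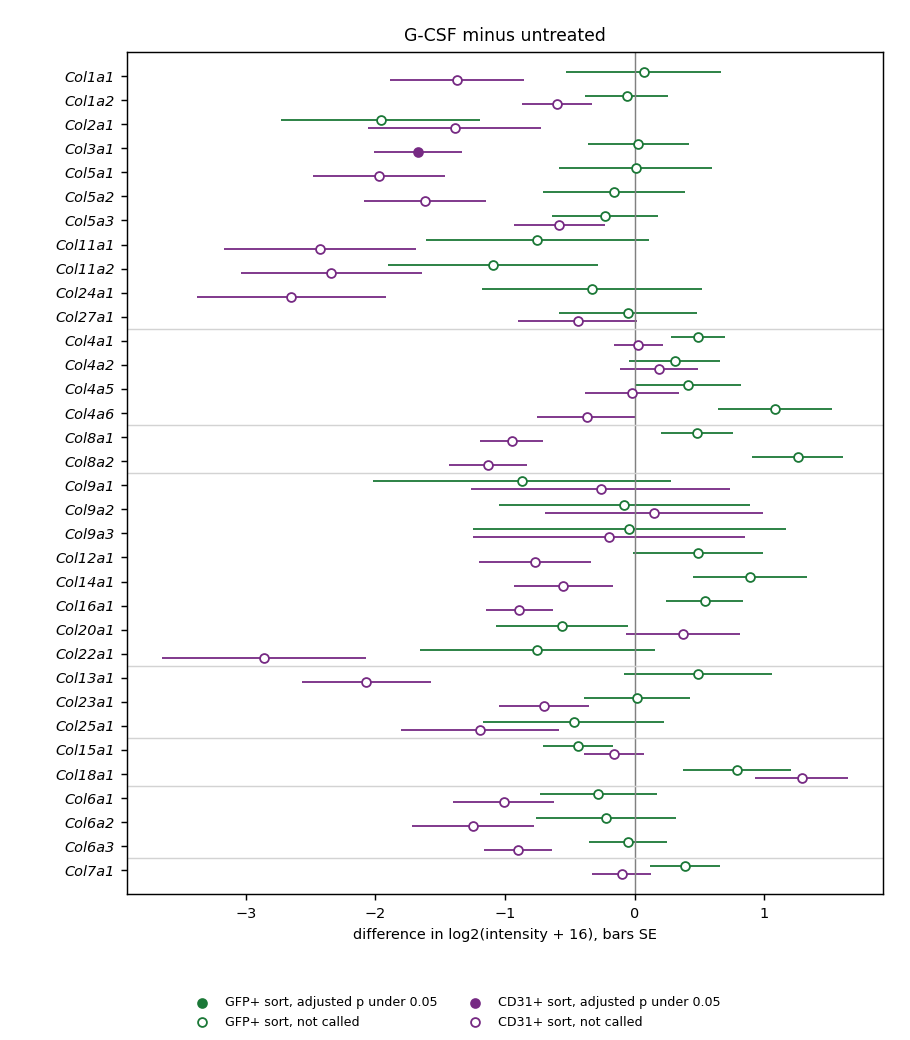
Change with G-CSF, G-CSF minus untreated, in log2(intensity + 16) with its SE for the 34 tested chains in the GFP+ sort (green) and the CD31+ sort (purple); the filled point has an adjusted p under 0.05 in the fit without a block. In the CD31+ sort most fibrillar, network and beaded-filament chains lie left of 0 and Col4a1 and Col4a2 at 0.03 and 0.19, and in the GFP+ sort no chain was called.

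Markers of other cells moved in the same arrays. The summed osteoblast marker intensity in the CD31+ sort was 20567, 1933, 5200 and 22911 after G-CSF, against 39694, 8549, 28666 and 32968 in untreated mice, for replicates 1 to 4. Within each treatment replicate 2 was lowest, and 2 of the 6 markers were called lower after G-CSF, Alpl with a change of -1.59 and Pth1r with -2.19. The summed fibroblast and tendon markers were 3318 to 21278 after G-CSF and 17164 to 53933 in untreated mice, with 1 of 10 called lower, Pdgfra with a change of -2.28. Endothelial sums were 79894 to 101045 after G-CSF and 88326 to 112818 in untreated mice, with none of 10 called. Every one of the 6 osteoblast markers averaged above the filter threshold in both CD31+ groups, and of the 10 fibroblast and tendon markers Scx averaged under it after G-CSF. Erythroid marker sums were 321 to 3744 after G-CSF and 2302 to 9756 in untreated mice, with 1 of 4 tested called lower, Klf1 with a change of -2.95, and with Hba-a1 under the threshold in both groups and Epb42 after G-CSF. Skeletal muscle sums were 1336 to 4754 after G-CSF and 3264 to 146644 in untreated mice, with none of 11 called, a median change of -1.70 and no marker under the threshold. The part of these cells in the change of the chains was not tested. The spread of the chains between arrays of 1 group was also wider than that of other genes: the median SD was 0.80 for the 34 chains and 0.28 for all genes in the CD31+ sort after G-CSF, and 0.51 and 0.27 in the untreated CD31+ sort. In the GFP+ sort it was 0.47 and 0.35 after G-CSF and 0.51 and 0.40 in untreated mice.

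**Figure D5:**
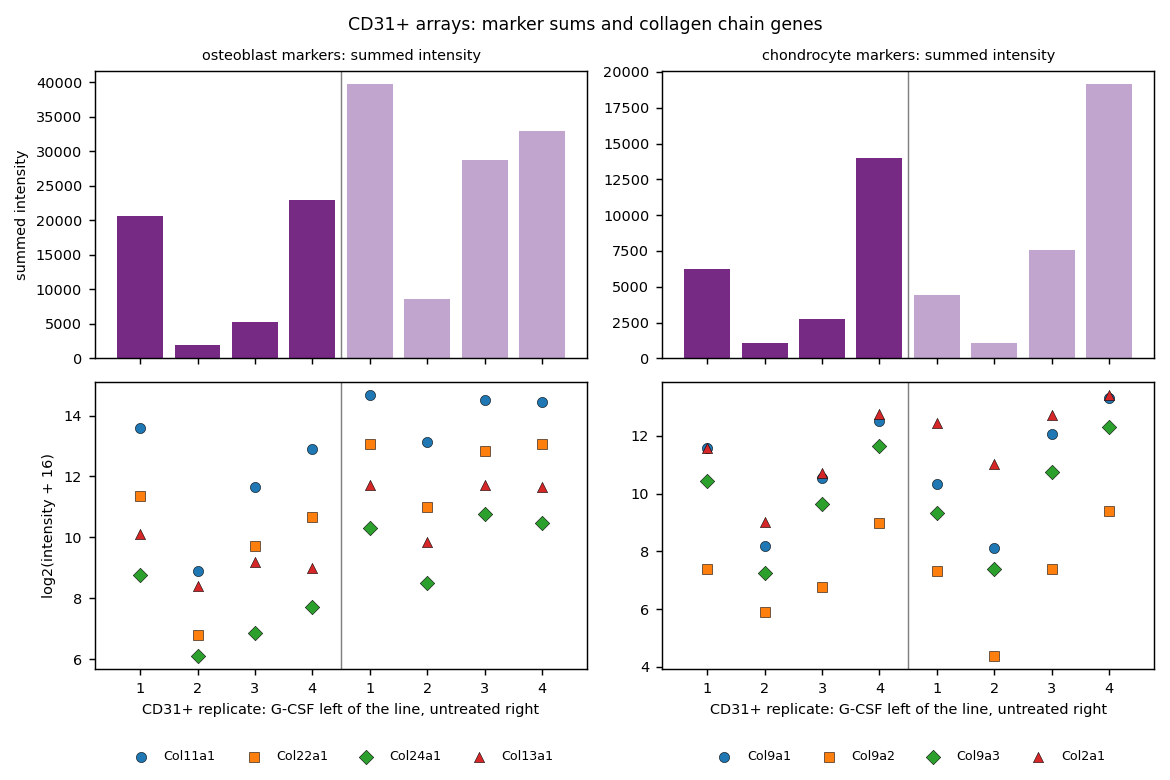
Top, summed intensity of osteoblast markers (left) and chondrocyte markers (right) on the 8 CD31+ arrays, G-CSF in dark and untreated in light purple; bottom, log2(intensity + 16) of 4 chains each on the same arrays. Replicate 2 had the lowest marker sums within each treatment, and Col11a1, Col22a1, Col24a1 and Col13a1 were lowest on it too; Col9a1, Col9a2, Col9a3 and Col2a1 were highest on replicate 4.

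The change with G-CSF was compared between the sorts by the interaction in the same fit, the change in the GFP+ sort minus the change in the CD31+ sort. None of the 34 chains was called, and none of the 13453 genes. At an unadjusted p under 0.05, 9 of the 34 chains had a positive difference and none a negative one, against 4.62% of all genes with such a p, 3.31% positive and 1.32% negative. They were Col8a2 at 2.38 ± 0.46, Col13a1 at 2.56 ± 0.76, Col5a1 at 1.99 ± 0.78, Col3a1 at 1.70 ± 0.52, Col4a6 at 1.45 ± 0.58, Col14a1 at 1.44 ± 0.58, Col16a1 at 1.43 ± 0.40, Col8a1 at 1.42 ± 0.37 and Col6a3 at 0.86 ± 0.40. The smallest adjusted p among them was 0.276, for Col8a2. Since this interaction is also the difference between the sort comparison after G-CSF and that in untreated mice, the larger number of chains called after G-CSF was not shown to be a change in any single chain.

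Genes that make, bind and break down collagen were set beside the chains. Of 15 proline and lysine hydroxylases and their partners, 8 were higher and 2 lower in the GFP+ sort after G-CSF, against 17.5% and 14.4% of all genes, and 4 were higher and 2 lower in untreated mice, against 13.6% and 12.8%. The same shares of all genes stand beside the counts of each list below. The prolyl hydroxylase subunit P4ha3 was higher by 4.22 ± 0.41 after G-CSF and 2.09 ± 0.41 in untreated mice, and P3h3, a prolyl 3-hydroxylase family member, by 2.52 ± 0.34 and 1.55 ± 0.34. P4ha3 averaged 4.64 in the CD31+ sort after G-CSF, under the filter threshold, which limits the size of that difference. The lysyl hydroxylase Plod1 was lower, with differences of -1.84 ± 0.18 and -1.49 ± 0.18, as was the collagen galactosyltransferase Colgalt2, with -1.78 ± 0.35 and -2.23 ± 0.35. Among 11 tested chaperones and export factors, 7 were higher after G-CSF and 3 in untreated mice with none lower, among them Mia3, which loads procollagen into transport carriers, by 1.94 ± 0.25 and 1.95 ± 0.25. Of these 2 lists, Plod2 and Creb3l1 were called only after G-CSF, at 2.51 ± 0.69 and 2.46 ± 0.57. In untreated mice they differed by 1.22 ± 0.69 and 0.85 ± 0.57.

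Of 9 tested genes of propeptide removal and crosslinking, 7 were higher in the GFP+ sort after G-CSF and 4 in untreated mice, and none was lower. The crosslinking oxidase Loxl1 was higher by 3.70 ± 0.31 after G-CSF and 2.86 ± 0.31 in untreated mice, and Bmp1, which removes the C-terminal propeptide, by 2.31 ± 0.31 and 1.87 ± 0.31. Lox was called only after G-CSF, at 3.05 ± 0.74, against 1.31 ± 0.74 in untreated mice. Collagen receptors were mixed: of 11 tested, 3 were higher and 4 lower after G-CSF, and 2 were higher and 3 lower in untreated mice. Ddr2, a receptor kinase for fibrillar collagen, was higher by 3.82 ± 0.43 and 2.82 ± 0.43, while Adgrg1, a receptor for type III collagen, was lower, with differences of -4.55 ± 0.33 and -3.71 ± 0.33. Itga6, an integrin chain better known as a laminin receptor, was lower, with differences of -3.73 ± 0.17 and -4.16 ± 0.17. Of 10 genes of collagen breakdown, 7 were higher and 1 lower after G-CSF and 4 higher and 1 lower in untreated mice, with the collagenase Mmp13 higher by 3.93 ± 0.58 and 3.97 ± 0.58 and the inhibitor Timp3 lower, with differences of -0.89 ± 0.15 and -1.15 ± 0.15. G-CSF called none of these 5 lists' genes in the GFP+ sort. In the CD31+ sort it called 2 receptors, Ddr2 at -1.76 ± 0.40 and Itga10, an integrin chain that binds type II collagen, at -1.79 ± 0.38, and none of the other 4 lists. Of all genes, 0.186% were called higher and 0.0446% lower in the GFP+ sort, and 0.453% higher and 1.14% lower in the CD31+ sort.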

How the data were processed

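RNA of 14 sorted-cell samples was measured on Affymetrix arrays from 100 ng of total RNA each. The deposited values are intensities per probe set, linear and scaled to a common level on each array, made by the authors with Affymetrix Expression Console 1.1 per the submitters' processing notes; the summarisation method is not given in the sources used here. GFP+ replicates 2 and 3 were deposited with more decimals than the other arrays. The number of arrays limits the precision. The files hold no coordinates.

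Intensities were taken as log2(intensity + 16). Of 45101 probe sets, 34945 had a single symbol in the platform table, 932 several and 9160 none, and 64 controls were left out. The brightest probe set by mean represented each of 18193 symbols, and genes under a mean of 5.78, the level of the dimmest 0.333 of probe sets, were left out. limma 3.58.1 in R 4.3.3 fitted 4 group means to the 14 arrays with a variance trend, and p-values were adjusted by Benjamini-Hochberg over 13453 genes. Tests were checked on simulated data. The members and gene lists were chosen with earlier results of these data known. Per-array values and full statistics are given for every chain called in a comparison, with the partners of its collagen type. From the lists of collagen making, receptors and breakdown a choice of called genes is named, which are not always those with the largest changes.

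Replicate numbers are shared across groups in the labels. Same-numbered arrays deviated together, with r of 0.223 to 0.315 in the 3 GFP+ pairs and 0.102 to 0.377 in the 4 CD31+ pairs, although replicate 4 of the CD31+ sort correlated better with another number (0.178). Between the sorts r was -0.011 to 0.271, under 0.1 in some pairs. The pairing is read from the data, not the labels, and blocked values are given for G-CSF. Alternatives were pseudocounts, normalisation, filters, probe-set choice, samples fitted, array weights, the replicate block and leaving out each array. After seeing the data, 6 more were added, on arrays that stood apart, on the decimals and on the actin 3′ to 5′ ratio (2.62 to 11.0 over the arrays). This ratio was highest on replicate 3 of the untreated GFP+ sort (11.0) and of the GFP+ sort after G-CSF (10.5). On the CD31+ arrays it was 2.62 to 6.57. The same 2 GFP+ arrays were the highest of their groups for 18 and 21 of the 34 tested chains.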

Additional observations from a re-analysis of the deposited data

Results flagged for a closer look

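Of 68 combinations of a tested chain and a CD31+ group, 5 held an array far from the other 3 of its group, and all 5 were replicate 2 of the untreated CD31+ sort. The distance is measured as the gap to the nearest array divided by the range of the group, above Dixon's critical value for 4 arrays. Chance gives about 1 in 20 groups, and 5 of 68 is near that rate. The share of all genes with such an array is not given. Col11a1 was 13.12 there, on the log2(intensity + 16) scale, against 14.45 to 14.68 on the others. Col11a2 was 10.77, Col22a1 was 11.01 and Col13a1 was 9.85, each the lowest of its group, and Col4a5 was the highest at 7.99. The osteoblast marker sum of this array was 8549, against 28666 to 39694 on the other 3, and its part in these values was not tested.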

How the results depend on the processing

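No called difference changed direction in any alternative. Between the sorts, leaving out 1 array gave 20 to 26 called chains after G-CSF and 13 to 19 in untreated mice, and every other setting gave counts within 1.5 times of the 25 and 18 reported. Of those 25, 19 were called in every fit that left out 1 array and 15 in every setting, and of those 18, 13 and 11.

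The count of chains called by G-CSF in the CD31+ sort, 1 as reported, was the least stable. It was 0 with arrays centred on their medians and at an adjusted p under 0.01. It was 4 with only the arrays compared, 12 with array weights, 15 with the replicate block, 3 without replicate 2 of the CD31+ sort after G-CSF and replicate 2 of the untreated GFP+ sort, and 4 over the arrays deposited with 1 decimal. Leaving out 1 array gave 0 to 6, with 6 without replicate 1 of the CD31+ sort after G-CSF or replicate 2 of the untreated one. In the GFP+ sort the count was 0 in every setting but the replicate block, which gave 1, and the difference between the sorts in the change with G-CSF gave 0 in every setting. Centring put the median change of all genes with G-CSF in the CD31+ sort at 0.13, against -0.05 without it. The replicate block changed no count of the sort comparisons by over 1.5 times. In the CD31+ sort the replicate block called 3.87% of all genes lower and 1.03% higher, and centring called 56 genes lower and 83 higher. For the other counts of this section the share of all genes is not given. Those counts therefore describe how stable the calls were, and not the chains against other genes. The cause of these shifts was not tested. A change in a chain near the filter threshold, such as Col8a2 in the CD31+ sort after G-CSF, is limited by the signal over background.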
